A study of Mus musculus with 20 samples.

Results

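H3K27me3 peaks of wild-type mouse embryonic fibroblasts (MEFs) were compared with those of the same genotype at day 5 of reprogramming. All peaks of both lists were taken: 6954 in MEFs and 6428 at day 5, together 13382 of the 53171 peaks in the 10 H3K27me3 lists analysed here. The MEFs were strain C57BL/6J-OG2, Jmjd3+/+, at day 0, with no factor delivered and nothing overexpressed. OG2 cells carry a GFP reporter driven by the Oct4 promoter. The strain is that of the sample annotation, whereas the study's text describes wild-type and Jmjd3-/- MEFs from the same litters as free of that reporter. The day 5 cells were of that strain and genotype, had been transduced with OSKM (Oct4, Sox2, Klf4 and c-Myc) and a FLAG control vector, and were grown in embryonic stem cell medium with vitamin C. The vectors are called lentiviral in the sample annotation and retroviral pMXs in the protocol. MEFs are a mixed population of embryonic mesenchymal cells, and at day 5 most cells are in an intermediate state, so each list is an average over cells. Each group had 1 library, so no test of the time effect was possible, and the time point cannot be told apart from the library.

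H3K27me3 is a histone mark of silent chromatin. Its writer is the Polycomb complex PRC2, in which EZH1 or EZH2 carries the methyltransferase site. Erasure needs a lysine demethylase, and mouse cells have KDM6A (UTX) and KDM6B (JMJD3) for it. In mammals it settles mainly on CpG-rich promoters of genes that are silent in the cell at hand, above all developmental regulators. In MEFs it covers epithelial, neuronal and many pluripotency genes. Early OSKM reprogramming includes a mesenchymal-to-epithelial transition, in which fibroblast genes are shut and epithelial junction genes are opened.

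A MEF peak was called lost where no day 5 peak overlapped it by at least 1 bp, and kept otherwise; a day 5 peak was called shared or new in the same way against the MEF list. These are calls on lists: a lost peak may have fallen just under the caller's threshold. All peaks were 1000 bp wide. Their score, the caller's own and without a stated scale, had a median of 11.9 in MEFs and 13.2 at day 5 and an upper limit of 200, and was used to order peaks within a list. To show what kinds of sequence are meant, 1 peak of each class is printed first: the best-scoring peak near a protein-coding gene that had the median number of CpG dinucleotides of its class. All sequences are from GRCm38 (mm10), plus strand, 200 bases nearest the peak's centre without annotated untranslated sequence, with CpG dinucleotides in capitals. The lost peak lay 3929 bp downstream of a start site of Pax9, a paired-box developmental regulator, in an intron (chr12:56699469-56699668); the gene kept its mark through other peaks, and a day 5 peak lay 317 bp from the lost one. The kept peak lay 1077 bp inside Sez6, a neuronal gene, in an intron (chr11:77931990-77932189). The new peak lay 1260 bp inside 6430548M08Rik, in an intron (chr8:120115314-120115513).
Pax9: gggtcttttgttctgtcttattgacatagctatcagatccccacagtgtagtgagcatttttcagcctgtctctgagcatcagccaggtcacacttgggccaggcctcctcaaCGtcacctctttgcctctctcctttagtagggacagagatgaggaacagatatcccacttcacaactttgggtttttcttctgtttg
Sez6: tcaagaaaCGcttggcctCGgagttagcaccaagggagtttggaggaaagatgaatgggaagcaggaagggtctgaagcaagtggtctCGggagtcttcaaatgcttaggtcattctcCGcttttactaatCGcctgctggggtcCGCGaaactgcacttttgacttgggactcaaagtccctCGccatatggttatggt
6430548M08Rik: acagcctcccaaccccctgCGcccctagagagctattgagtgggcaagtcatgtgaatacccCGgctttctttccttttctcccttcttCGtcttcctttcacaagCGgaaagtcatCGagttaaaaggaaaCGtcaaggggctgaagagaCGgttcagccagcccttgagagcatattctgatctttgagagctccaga
The full 1 kb peaks held 12, 38 and 19 CpGs, respectively. The windows held 1, 8 and 7 CpGs.

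Genes that the later comparisons turn on are printed in the same way. Cdh1 encodes E-cadherin, the adhesion molecule of epithelia, and its kept MEF peak was read 661 bp inside the gene (chr8:106603941-106604140). Pdgfra encodes the platelet-derived growth factor receptor alpha of mesenchymal cells, and its best new peak was intronic (chr5:75153761-75153960). Twist2 encodes a mesenchymal bHLH factor, and its new peak covered the coding exon (chr1:91801907-91802106).
Cdh1: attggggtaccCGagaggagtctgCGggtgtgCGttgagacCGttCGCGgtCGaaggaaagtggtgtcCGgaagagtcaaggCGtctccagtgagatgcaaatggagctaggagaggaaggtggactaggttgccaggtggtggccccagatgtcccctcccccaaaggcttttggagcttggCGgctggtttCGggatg
Pdgfra: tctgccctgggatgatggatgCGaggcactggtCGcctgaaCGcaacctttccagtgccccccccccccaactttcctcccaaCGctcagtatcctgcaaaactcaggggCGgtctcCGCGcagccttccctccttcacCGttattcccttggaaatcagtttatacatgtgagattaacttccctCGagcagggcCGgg
Twist2: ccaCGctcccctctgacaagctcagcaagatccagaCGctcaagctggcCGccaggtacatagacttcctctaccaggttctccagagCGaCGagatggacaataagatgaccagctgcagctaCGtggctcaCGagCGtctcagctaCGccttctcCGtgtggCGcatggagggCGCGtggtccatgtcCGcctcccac
These peaks held 57, 46 and 67 CpGs per 1 kb and were therefore all richer in CpG than the median kept peak.

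Between MEFs and day 5 the list turned over in both directions while its length changed little. Of the 6954 MEF peaks, 3089 were lost, a share of 44.4% (95% Wilson interval 43.3 to 45.6). Of the 6428 day 5 peaks, 2576 were new, a share of 40.1% (38.9 to 41.3). These intervals, and all others given here, cover counting error only; neighbouring peaks are not independent, and the spread between libraries is not in them. With both lists cut to 6428 peaks by score, the shares were 41.6% and 41.3%. The day 5 list was 0.924 times as long as the MEF list (0.894 to 0.956), but with scores under 20 set aside in both it was 1.01 times as long, so the direction of that small difference rested on weak peaks. Kept peaks mostly sat on the same positions: the median overlap was 772 of 1000 bp, and 82.0% overlapped by at least 500 bp. At the edge of the rule, 54 kept peaks overlapped by under 100 bp and 71 lost peaks had a day 5 peak under 100 bp away.

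Strong peaks rarely disappeared. In the quartile of MEF peaks with the highest scores 6.10% were lost, against 31.6%, 64.5% and 75.5% in the following quartiles. New peaks followed the same gradient, with 7.84%, 28.6%, 52.7% and 71.1% by day 5 quartile. Of the 500 best MEF peaks 4 had no overlap anywhere in the day 5 list, and of the 500 best day 5 peaks 16 had none in the MEF list. The order among the strong peaks changed more than their presence: when the best 500 of each list were set against each other, 42.0% had no partner. Of the MEF peaks in the best quartile, 65.6% had their day 5 partner in the best quartile and 26 peaks had it in the weakest. In the other direction, 40 peaks of the weakest MEF quartile had a partner in the best day 5 quartile.

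**Figure D1:**
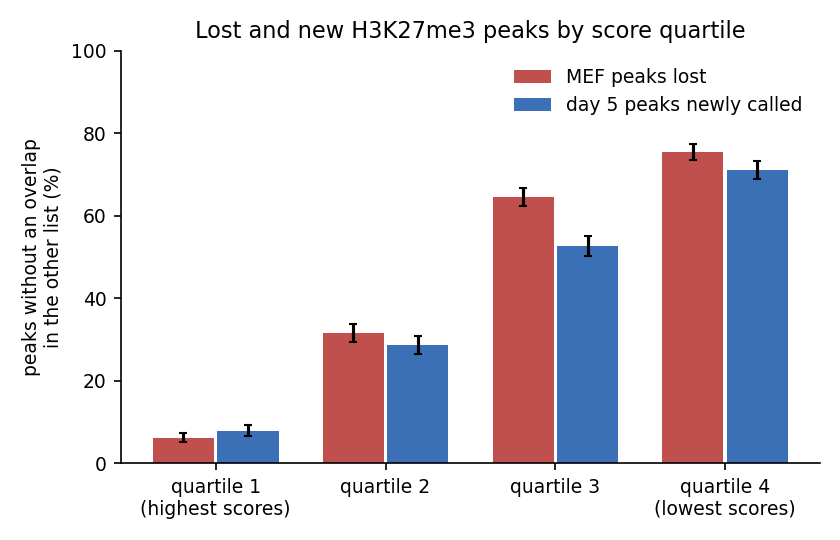
Share of peaks without an overlap in the other list (y axis, percent) by score quartile of the peak's own list (x axis), for MEF peaks that were lost and day 5 peaks that were new, with 95% Wilson intervals as bars. Lost peaks rise from 6.10% in the strongest quartile to 75.5% in the weakest, and new peaks from 7.84% to 71.1%.

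The highest peaks of all were shared. They included the promoter regions of Egr4, an early growth response transcription factor (MEF rank 23, day 5 rank 9), Agap2, which encodes a GTPase-activating protein (ranks 22 and 15), and Dgkz, a diacylglycerol kinase gene (ranks 7 and 23). Peaks at Aida and Gm10800 also led both lists (Aida ranked 1 in each). The Gm10800 peak consisted of repeats for 85.7% of its bases, both peaks overlapped a KLF4 peak, and both were called in all 8 other H3K27me3 lists. Leaving out peaks with more than 50% repeats gave 43.7% lost and 40.2% new.

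Lost peaks were poorer in CpG and less often near promoters than kept peaks, and new peaks lay between lost and shared ones. A peak was taken to meet a CpG island rule where its GC content was at least 50% and its observed over expected CpG ratio at least 0.6. This held for 31.8% of kept but 3.56% of lost peaks, and for 16.5% of new peaks. Of all 1 kb windows of the genome, 0.612% met it. The median number of CpGs per peak was 12 in lost, 19 in new, 38 in kept and 40 in shared peaks. The difference between lost and kept peaks was -28.3 points (Newcombe interval -29.9 to -26.7). Because weak peaks are both more often lost and poorer in CpG, the classes were also compared within each score quartile. There lost peaks stayed below kept peaks in every quartile, by -31.7, -14.2, -14.7 and -10.1 points from the strongest to the weakest. New peaks fell below shared peaks over all scores, with 426 of 2576 against 1387 of 3852 peaks meeting the rule, a difference of -19.5 points. Within quartiles the difference was small, at 0.21, 3.75, -0.22 and -1.50 points.

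Positions relative to transcription start sites (TSSs) gave the same order. The peak centre was within 5 kb of a TSS in 43.6% of lost, 70.2% of kept and 49.2% of new peaks, beside 18.5% of sequenced bases of the genome. Within 1 kb the shares were 12.9%, 44.7% and 28.5%. The centre was intergenic in 53.6% of lost, 41.8% of new and 28.8% of kept peaks, and in an exon in 8.06%, 15.3% and 28.0%. Within score quartiles lost peaks were less often within 5 kb of a TSS than kept peaks, by -10.7, -10.6, -17.4 and -16.9 points. New peaks of the strongest quartile were within 5 kb of a TSS in 91.3% (115 of 126), above the 82.1% of shared peaks, whereas in the weakest quartile the order was the reverse, at 35.3% and 52.2%.

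**Figure D2:**
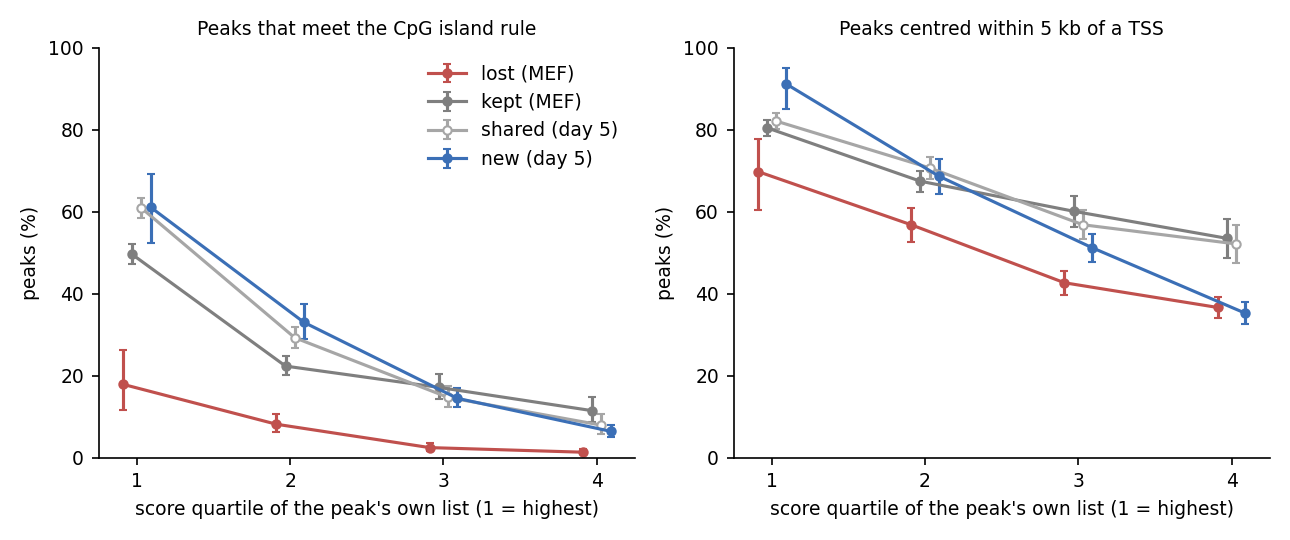
Percent of peaks (y axes) that meet the CpG island rule (left) or are centred within 5 kb of a TSS (right), by score quartile of the peak's own list (x axes), with 95% Wilson intervals. In the left panel the lost peaks lie below the other classes in every quartile, from 17.9% to 1.37%, and new peaks follow the shared ones.

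The base composition of the lists as wholes moved with this result. In the whole MEF list 19.3% of peaks met the CpG island rule, and 28.2% did at day 5. Over the other 8 lists the share was 22.9% in Jmjd3-/- MEFs and ranged from 22.5% to 32.3% in the 7 reprogramming lists. When all 10 lists were cut to their 3045 best peaks, the share was 35.9% in the MEF list and 46.9% at day 5, but 27.6% in Jmjd3-/- MEFs and from 32.3% to 43.1% in the others, so MEF lists were not always the lower. The part of library composition in the difference between lost and new peaks was not tested.

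Neighbouring peaks were joined into domains where peaks of either list lay within 3 kb. Of 6424 domains with a MEF peak, 38.8% had none at day 5, and 35.0% of the 6045 domains with a day 5 peak were new. By number of MEF peaks, 39.6% of domains with 1 peak emptied, 31.5% of those with 2, and 6 of 77 with 3 or 4. Of the 3089 lost peaks, 2377 were the only MEF peak of a domain that emptied, 476 lay in domains that kept a day 5 peak, and 39.9% lay more than 50 kb from any day 5 peak. The emptied domain with the most peaks of the highest scores was that of Hoxc12, a posterior HoxC gene, with 3 MEF peaks scoring up to 29.7 over 5700 bp. The best-scoring of these peaks was nevertheless called in 6 of the 8 other H3K27me3 lists. A domain next to Pou3f2, a neural POU factor gene, also lost 3 weak peaks. Some domains thinned. The domain of Lhx5, a LIM homeobox gene of the forebrain, went from 8 peaks to 4. Others filled in: Insm1 and Lmx1a, neuroendocrine and midbrain regulators, each went from 2 to 5 peaks, and Foxa1, a pioneer factor of endoderm, from 2 to 4. The best raw score in these domains was lower at day 5, at 21.71 and 19.01 for Insm1, 20.7 and 15.5 for Lmx1a, and 87.6 and 33.1 for Foxa1. It was higher in the domains of Sox1 (49.69 and 64.69) and Olig2 (14.04 and 19.52), which each went from 1 to 3 peaks. Raw scores of separately called lists may not share a scale, so these values show no fall or rise of the mark.

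The lost and new classes were next looked up in 8 H3K27me3 lists that were not used to define them. Lost peaks were rarely called later in reprogramming, and new peaks were called there more often. In wild-type FLAG cells at day 10, 10.5% of lost, 65.6% of kept and 30.0% of new peaks had an overlapping peak. In the other wild-type day 5 library, with Jmjd3 overexpressed, 70.3% of kept and 27.7% of new peaks had one, and 431 of the 3089 lost peaks. New peaks exceeded lost peaks in all 7 reprogramming lists. In Jmjd3-/- MEFs, annotated as strain C57Bl6J, the order was the reverse, with 19.4% of lost and 8.23% of new peaks called. A call in none of the other 8 lists was found for 50.6% of the lost, 31.3% of the new and 3.21% of the kept peaks. New peaks of the strongest day 5 quartile were called at day 10 in 86.5%, near the 91.5% of shared peaks of that quartile, and those of the weakest quartile in 13.6%.

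**Figure D3:**
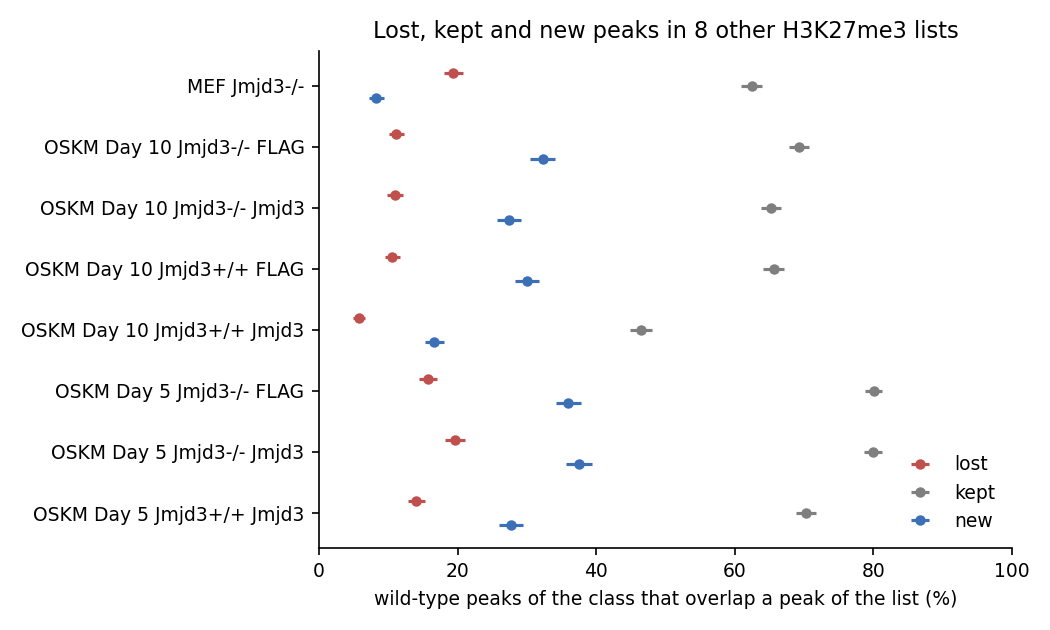
Percent of lost, kept and new wild-type peaks (x axis) that overlap a peak in each of 8 other H3K27me3 lists (y axis), with 95% Wilson intervals. New peaks lie to the right of lost peaks in the 7 reprogramming lists and to the left of them in Jmjd3-/- MEFs (8.23% against 19.4%).

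The knockout libraries gave another pair of lists for the same step. Of MEF peaks that were also called in Jmjd3-/- MEFs, those lost in wild type had no peak in Jmjd3-/- FLAG cells at day 5 in 71.1% (425 of 598). Those kept in wild type had none in 10.1% (245 of 2415). The difference was 60.9 points (57.0 to 64.6), and it was positive in each score quartile, from 38.5 to 53.2 points. Day 5 peaks that were new in wild type and called in Jmjd3-/- FLAG cells at day 5 were absent from the Jmjd3-/- MEF list in 86.8% (805 of 927), against 30.1% for shared peaks. That comparison was not made within score quartiles. Over all day 5 peaks the median score percentile was 28.6 for new and 66.1 for shared peaks, and weak peaks are more often missing from another list.

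At the level of genes, a gene was called marked where a peak came within 5 kb of one of its TSSs. Of 21951 protein-coding genes, 14.6% were marked in MEFs and 14.7% at day 5. 2494 genes were marked in both, 711 in MEFs only and 736 at day 5 only. This balance depended on the window: with 1 kb, 296 were marked in MEFs only and 753 at day 5 only. With a score minimum of 20 in both lists, 1592 genes (7.25%) were marked in MEFs and 1702 (7.75%) at day 5. Of the 3205 genes marked in MEFs 22.2% had lost the mark, and of the genes without it 3.93% gained it. New marking of genes recurred in other lists: 49.6% of the 736 genes were also marked in wild-type FLAG cells at day 10 and 9.10% in Jmjd3-/- MEFs. Of the 711 genes that lost the mark, 12.2% and 26.7% were marked there. The lists of genes described next are read against these shares, and they carry no test.

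Most families of developmental regulators lost the mark at fewer members than the 22.2% of all marked genes. Of 95 homeobox genes outside the Hox clusters marked in MEFs, 94 still had a peak at day 5, while Emx2 and Irx3 gained one. All 23 marked forkhead genes, all 5 marked GATA genes and all 38 marked ligand genes of the Wnt, Bmp, Fgf and hedgehog families kept it. It was lost at 1 of 11 marked T-box genes (Tbx22) and at 2 of 30 marked lineage bHLH genes (Ascl4 and Msc). Among Sox genes the share was close to that of all genes, with 2 of 10 lost (Sox13 and Sox21). In the Hox clusters 34 of 39 genes were marked in both lists. The direction of the small difference in number, 37 in MEFs and 35 at day 5, depended on the settings: with a 1 kb window 24 and 29 were marked, beside 9.72% and 11.8% of all genes, and with a score minimum of 20 there were 19 and 25. Ligand genes went from 25 to 33 at that minimum. The Hox genes that changed were Hoxa9 (best MEF score 24.8), Hoxa11 (12.04) and Hoxc12 (29.7), which had no peak at day 5, and Hoxa6, which gained one (9.75). Hoxa9 was nevertheless marked in all 8 other H3K27me3 lists, and Hoxa11 and Hoxc12 were marked in the other wild-type day 5 list. In wild-type FLAG cells at day 10, Hoxa11 was marked and Hoxc12 was not. The peaks of Hox neighbours are partly shared, so these genes are not separate observations.

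Several mesenchymal regulators were newly marked. Of the 22 mesenchymal transcription factor genes 5 were marked in MEFs, and 5 of the other 17 (29.4%) gained a peak, beside 3.93% of all unmarked genes. They were Snai1 and Snai3, of the Snail family that represses Cdh1, the bHLH gene Twist2, the homeobox gene Prrx2, and Klf2, which is counted in the pluripotency list as well. Their day 5 scores were modest, from 7.87 at Snai1 to 16.0 at Snai3, and none of these 5 had a peak in either MEF list. Snai1 and Snai3 were each marked in 1 of the 8 other lists, and Snai1, Snai3 and Twist2 had no peak in wild-type FLAG cells at day 10. With a score minimum of 20 the list had 3 marked genes in MEFs and 4 at day 5, beside 1592 and 1702 of all genes. Other families of regulators also gained marks at a share above that of all genes, with 3 of 8 unmarked Sox genes and 4 of 10 unmarked lineage bHLH genes. Sox9, a regulator of cartilage, gained a strong peak (score 42.6, rank 895), and so did Hand2, a regulator of heart and limb mesenchyme (32.3, rank 1350). Sox9 was marked in all 7 other reprogramming lists and in neither MEF list, whereas Hand2 was marked in Jmjd3-/- MEFs and in neither wild-type list at day 10. Among ligands, Wnt5b, Fgf2 and Fgf10 were newly marked.

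Fibroblast genes were nearly free of the mark in MEFs, where of 43 matrix and identity genes only Thy1, a surface antigen of fibroblasts, carried a peak. At day 5 there were 4, with Pdgfra, Lox and Col12a1 added. Pdgfra had no MEF peak and 2 new day 5 peaks, with scores of 58.7 and 29.4, the better one ranked 500 of 6428. Lox, which encodes the collagen cross-linking enzyme lysyl oxidase, had a new peak with a score of 53.2 and rank 606. Both genes were marked in the other 7 reprogramming lists as well, and in neither MEF list. Col12a1, a fibril-associated collagen gene, had a weak peak (6.75). At Thy1 the best peak rose from rank 4054 to 2487. Thy1 was also among the genes fixed as fibroblast markers. The others, the collagen genes Col1a1, Col1a2 and Col3a1, and Vim, Fn1, Postn and Pdgfrb, had no peak in either list. That held for 82.0% of all protein-coding genes, so it says little about the MEF label. In all, 3 of 42 unmarked fibroblast genes (7.14%) gained a peak, beside 3.93% of all unmarked genes, a count too small to set the list apart. With a window of 10 kb, 4 were marked in MEFs and 6 at day 5.

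Most epithelial genes marked in MEFs were still marked at day 5, at lower positions within the list. Of 56 epithelial genes 34 were marked in MEFs and 31 at day 5, and with a score minimum of 20 the numbers were 25 and 17, beside 1592 and 1702 of all genes. 5 lost it: the keratin gene Krt8, the junction genes F11r, Tjp3 and Cldn11, and the protease inhibitor gene Spint2. That is 14.7% of the marked members, below the 22.2% of all genes. Grhl3 and Llgl2 gained a peak. For the 29 genes marked in both, the best peak was placed by score percentile, where 100 is the top of its own list, a measure chosen after the data were seen. The percentile was lower at day 5 for 25 of the 29, beside 54.7% of all 2494 genes marked in both. It fell by more than 25 points for 9 of them (31.0%), beside 11.6% of all, and rose by more than 25 points for 1 (Cdh3), beside 9.62%. The median shift was -7.05 points, beside -0.97. Genes with a strong MEF peak tend to fall, so the comparison was repeated among genes whose best MEF peak was in the strongest quartile. There 20 of 23 epithelial genes were lower at day 5, beside 67.9% of all 1282, and 7 of 23 fell by more than 25 points, beside 10.5%.

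The falls were seen at junction genes in particular. Cldn3, a claudin of tight junctions, went from a score of 130 and rank 54 in MEFs to 18.8 and rank 2386 at day 5. Dsp, the desmosomal plaque gene, went from rank 392 to 2611, Marveld3 of the tight junction from 369 to 2701, and Pkp1, a desmosomal plakophilin gene, from 951 to 5575. Cdh1 went from a score of 94.6 and rank 176 to 36.6 and rank 1147. Among regulators of the epithelial state, Grhl2 and Ovol1 stayed at the top (ranks 4 and 29, and 124 and 83). Epcam and Ocln moved little, from rank 348 to 490 and from 248 to 406. Cdh3, which encodes P-cadherin, rose from rank 3676 to 604, and Esrp1, a splicing regulator of epithelia, from 1582 to 183. The MEF and day 5 peaks of Esrp1 lay 205 bp apart, so that they count as a lost and a new peak although they are neighbours. Cldn6 and Cldn9 share their peak. Between the knockout lists, 14 of 24 epithelial genes had a lower percentile at day 5, beside 39.2% of the 1911 genes marked in both of those lists.

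**Figure D4:**
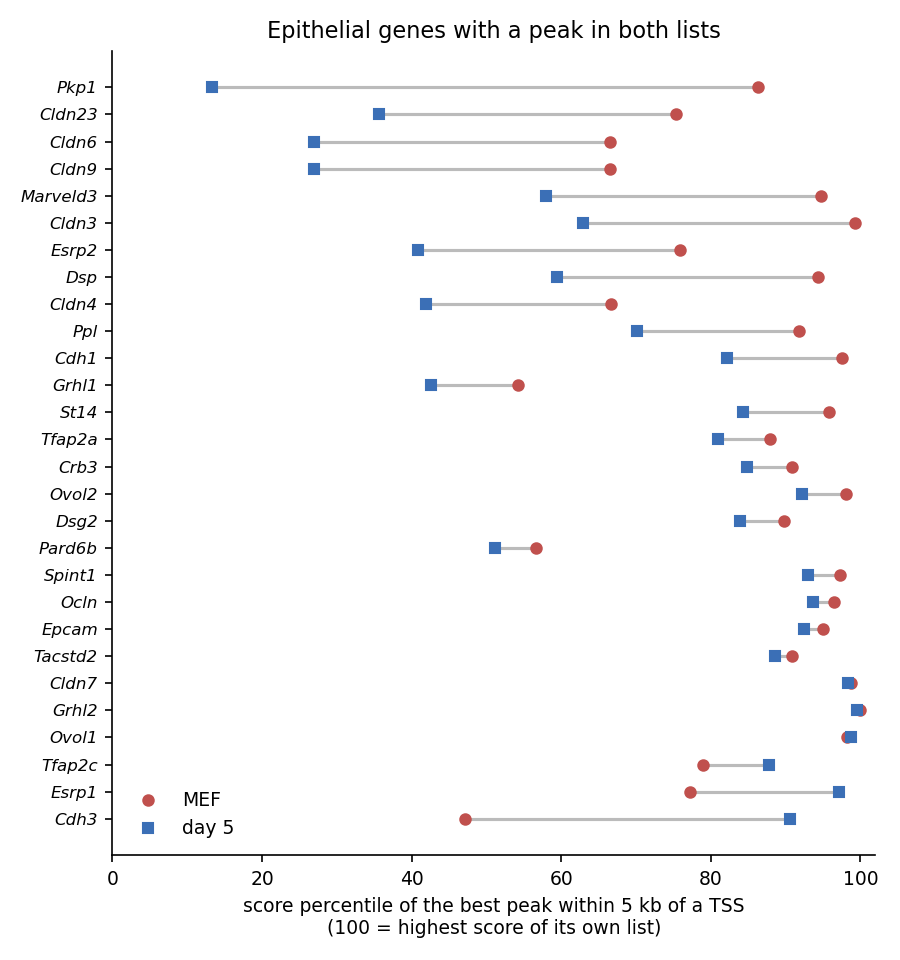
Score percentile (x axis, 100 is the highest score of the peak's own list) of the best peak within 5 kb of a TSS for 28 of the 29 epithelial genes marked in both lists (y axis), ordered by the shift from MEF (circles) to day 5 (squares). For 24 of the plotted genes the day 5 value lies to the left of the MEF value, and Cdh3 shows the largest rise among them.

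Pluripotency genes were marked in part, with 25 of 46 in MEFs and 23 at day 5, and with 17 and 11 at a score minimum of 20, beside 1592 and 1702 of all genes. The mark was lost at 3 of the 25, beside 22.2% of all marked genes, with Tfcp2l1 and L1td1 among them, and Klf2 gained it. Of the 22 marked in both, 15 (68.2%) were at a lower percentile at day 5, beside 54.7% of all genes marked in both. Among genes whose best MEF peak was in the strongest quartile the shares were close, with 9 of 13 pluripotency genes (69.2%) lower, beside 67.9% of all. Between the knockout lists 7 of 17 (41.2%) were lower, beside 39.2%. A fall of more than 25 points was found for 4 (18.2%), beside 11.6% of all, namely Tdgf1, which encodes a Nodal co-receptor, Lefty2, Gbx2 and Nanog. Nanog went from rank 3536 to 5311 and Tdgf1 from 1237 to 3721. The strongest members held, with Utf1 at ranks 46 and 13, Lin28a at 49 and 237, Esrrb at 72 and 201 and Fgf4 at 64 and 115. At the reprogramming factors themselves, a MEF peak over the Pou5f1 start site (score 7.96) was lost, Sox2 went from 2 peaks to 1, Klf4 had a peak in both and Myc had none. The lost Sox2 peak lay 4797 bp upstream of the start site and overlapped no exon. In the day 5 peaks that overlap exons of Sox2 and Klf4, reads from the vectors cannot be told apart from those of the endogenous genes; MEFs carried no vector.

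Of 11 Polycomb and H3K27 demethylase genes marked in MEFs, 3 (Phf19, Pcgf3 and Cbx7) had no peak at day 5, which is 27.3% beside 22.2% of all marked genes, and none was newly marked. Their MEF scores were low, from 7.39 to 10.1. At Cdkn2a, the senescence locus encoding INK4A and ARF, 3 MEF peaks (scores 15.0, 7.83 and 6.63) became 1 (12.2), and the weakest MEF peak was the one kept. Of the 39 neuronal genes 27 were marked in both lists. The mark was lost at 1 of 28 (Stmn2), beside 22.2% of all marked genes, and 1 of 11 unmarked members gained it (Th), beside 3.93%. Of the 32 blood and endothelial genes 11 were marked in both, 1 of 12 lost the mark (Cd34) and 1 of 20 was newly marked (Erg), beside the same shares. Stmn2 and Cd34 were marked in none of the 8 other lists. Erg was marked in all 8 of them, Jmjd3-/- MEFs included, so its change rests on the missing call in the wild-type MEF list.

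**Figure D5:**
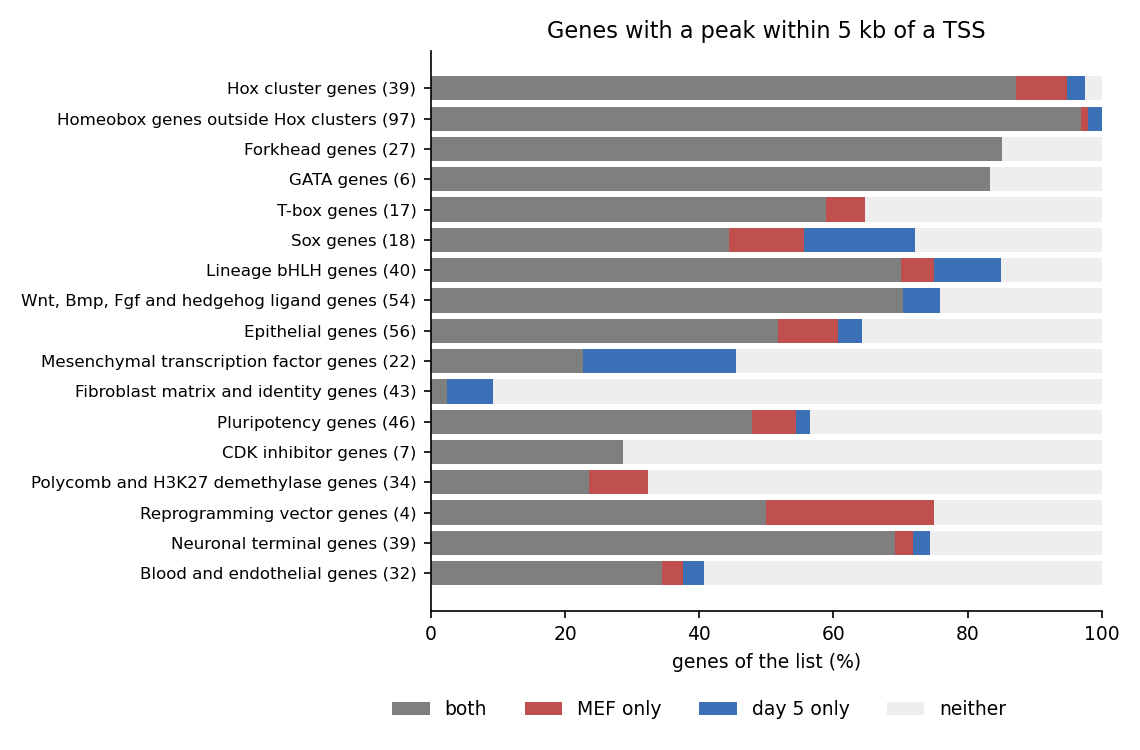
Percent of the genes of each list (x axis; number of genes in brackets on the y axis) with a peak within 5 kb of a TSS in both lists, in MEFs only, at day 5 only or in neither. Mesenchymal transcription factor genes and fibroblast genes have members marked at day 5 only (5 and 3) and none marked in MEFs only.

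Lastly, the peaks were set against positions of KLF4 (10655 peaks, day 5 wild-type FLAG cells) and of FLAG-tagged JMJD3 (14067 single-base positions, day 5). The FLAG-JMJD3 positions came from OSKM cells that overexpressed this protein, and their sample title gives no genotype. The day 5 peaks compared here came from cells with the FLAG control vector. KLF4 is a reprogramming factor that binds DNA and was found on few of these peaks: 1.52% of lost, 2.90% of kept and 1.51% of new peaks overlapped. FLAG-JMJD3 positions fell in 1.55% of lost, 0.880% of kept and 0.311% of new peaks, and lost exceeded kept peaks by 0.674 points (0.160 to 1.23). Among the strongest quartile of MEF peaks the classes parted. There 15 of 106 lost peaks overlapped KLF4 (14.2%), against 62 of 1633 kept peaks (3.80%), a difference of 10.4 points (4.87 to 18.3). FLAG-JMJD3 positions fell in 9 of the 106 (8.49%) against 19 of the 1633 (1.16%), a difference of 7.33 points (3.32 to 14.2). Both were found in 7 of the 106, including peaks at Podxl, which encodes podocalyxin (score 71.7, rank 411), Zfhx3 and Hrh1. Over all quartiles the sign for KLF4 was not constant, and in the weaker 3 quartiles lost peaks lay below kept ones by up to -1.98 points. This split by score was made after the values were seen. In the knockout lists, the strongest quartile gave 3 of 93 lost and 45 of 935 kept peaks with KLF4, a difference of -1.59 points (-4.23 to 4.37), so the excess for KLF4 was not found there. For FLAG-JMJD3 it gave 3 of 93 lost and 9 of 935 kept peaks, a difference of 2.26 points (-0.026 to 8.11).

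Other strong lost peaks had no KLF4 overlap. They lay in Chst8, a sulfotransferase gene (score 90.5, rank 211), in Nfe2l3, a bZIP factor gene (71.0), and 2160 bp inside Wnt1 (72.0), where the gene kept its mark through other peaks. The Nfe2l3 peak held a FLAG-JMJD3 position. The Chst8 and Wnt1 peaks were each called in 6 of the 8 other lists, and the Nfe2l3 peak in 3. The peak at Crmp1, a neuronal gene, was lost (54.8) although all 8 other lists called it. The strongest new peaks among those within 5 kb of a protein-coding TSS lay in CpG-rich sequence. They included Kcnd3, a potassium channel gene (score 72.2, 119 CpGs), Plxnc1, a plexin gene (69.6, 131 CpGs), Ank1, which encodes ankyrin (61.0, 149 CpGs), Adamts2, a procollagen protease gene (72.4), and Vgf and Lhx4. Of these 6 peaks, each was called in at least 6 of the 8 other lists. The Kcnd3 peak was called in all 8, Jmjd3-/- MEFs included, so that its class rests on the missing call in the wild-type MEF list. Lhx4 was already marked in MEFs through another peak (score 58.8, rank 586).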

How the data were processed

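ChIP-seq peak lists of 2 wild-type H3K27me3 libraries were analysed, with 8 other H3K27me3, 1 KLF4 and 1 FLAG-JMJD3 list for comparison. A KLF4 list of cells with Jmjd3 overexpressed and a FLAG-JMJD3 list of another factor mix were not used, and the other 6 of the 20 samples of the series have no list analysed here. The authors aligned reads to mm10 with Bowtie2 (2.2.0 in the submitters' processing notes) and called H3K27me3 peaks of 1000 bp with DFilter; the deposited score of each peak (BED column 5) has no stated scale, and the lists hold neither signal nor read depth. The study's read totals cover the reprogramming libraries, and none was found for the MEF libraries in the sources used here. A Drosophila spike-in was described for reprogramming cells, and whether it entered the peak calls is not given in the sources used here. Lower depth shortens a list. Overlap, TSS distance (GENCODE M21 basic), GC, CpG and repeat content (GRCm38.p6) were computed with Python 3.11.15, numpy 2.4.6, scipy 1.17.1 and pysam 0.24.0. Overlap counts were checked against bedtools 2.31.1 and on simulated lists. Shares have 95% Wilson intervals, differences Newcombe intervals and ratios Poisson intervals. Nothing says that libraries came from separate cultures. Genes named were all members of 17 gene lists, the 8 best-scoring lost, new and kept peaks within 5 kb of a protein-coding TSS, and the 10 leading domains of each kind; the KLF4-overlapping lost peaks were named after their values were seen. Members and lists were chosen with earlier results of these data known. Some genes are counted in the lists but are not reported here by name.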

Additional observations from a re-analysis of the deposited data

Results flagged for a closer look

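The number of H3K27me3 peaks fell from MEFs to day 5 in one genotype and rose in the other. The ratio of day 5 FLAG over MEF peak numbers was 0.924 in wild type and 1.37 (4113 to 5643 peaks) in Jmjd3-/- cells. With a score minimum of 20 the wild-type ratio was 1.01, so its direction rested on weak peaks. Each genotype had 1 library per time point, the annotated strains differed, and the difference was not tested.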

How the results depend on the processing

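No paired analysis was possible because each group had 1 library, and for the same reason no replicate could be left out. The shares lost and new were 54.4% and 50.8% with at least 50% of the peak covered, 40.5% and 36.1% with peaks within 1 kb taken as shared, 34.6% and 29.3% when only the higher-scoring 50% of either list was used, 30.2% and 30.9% with a score minimum of 20, 41.6% and 41.3% with both lists cut to the shorter, and 30.7% in both with all lists cut to the shortest of 10; autosomes alone moved neither beyond its interval. The ratio of list lengths was 1.01 with a score minimum of 20, the opposite direction. Lost, kept and new peaks within a TSS window were 12.9%, 44.7% and 28.5% at 1 kb, 62.3%, 81.1% and 62.6% at 10 kb, and 33.1%, 61.4% and 39.8% at 5 kb from protein-coding TSSs. Genes marked in MEFs only numbered 296 with a 1 kb window, beside 753 at day 5 only, and 356 with a score minimum of 20, which left 1236 genes in both and 466 at day 5 only. Emptied domains made up 40.1% and 34.9% with merging at 1 and 10 kb, and new domains 33.4% at 10 kb. With an observed over expected CpG ratio of at least 0.75, the rule held for 1.10% of lost, 14.1% of kept and 7.57% of new peaks. A KLF4 peak lay within 1 kb of 3.08%, 6.36% and 4.97%. With 50% coverage, 7.02% of lost and 53.4% of kept peaks were called in wild-type FLAG cells at day 10, and 7.19% and 55.9% in Jmjd3-/- FLAG cells. Within score quartiles, chosen after seeing the data, these differences changed sign: new minus shared near a TSS (-20.9 points over all peaks, 9.16 in quartile 1), new minus shared for the CpG rule (-19.5 over all, 0.56 points as the mean, 0.21 and 3.75 in quartiles 1 and 2), lost minus kept for KLF4 (-1.38 points over all, 1.64 as the mean, 10.4 in quartile 1), and new minus shared for FLAG-JMJD3 (0.19 in quartile 1). The causes were not tested. The lists hold no read depth, and none was found for the MEF library in the sources used here, so a weak peak in 1 list only cannot be told from one missed in the other.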
